A study of Mus musculus with 127 samples.

Results

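The 41 genes described here are autism-associated genes, counted in cortex and cortical cell fractions of mice with a mutated Chd8. They are those not placed in separate groups of chromatin remodellers, ion channels or synaptic genes. They were chosen by name from a list of autism-associated genes, and not by their values, out of 54838 gene rows shared by all count tables. Earlier results of these data were known when the choice was made. By known function, 18 act in transcription and chromatin, 8 in RNA binding, translation or protein acetylation, 3 are ubiquitin ligases or ligase scaffolds, 5 belong to kinase, phosphatase, mTOR and Ras signalling, and 7 to the cytoskeleton, scaffolds and cell adhesion. Chd8 encodes a chromatin remodeller that is itself a high-confidence autism gene in humans, and the comparisons ask whether its loss changes the RNA levels of these other autism genes in the adult cortex, and where in the cell their RNAs lie.

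Poly(A) RNA was sequenced from cortex collected at about postnatal day 60. In the germline line, heterozygous mice carrying a 5-base deletion in 1 copy of Chd8 (Chd8+/5bpdel, labelled HET) were set against wild-type littermates (WT), with 16 HET and 15 WT whole cortices, 9 HET and 12 WT nuclear fractions, 7 HET and 11 WT synaptic fractions, and 7 HET and 5 WT cytosolic fractions. In the conditional line, the Camk2a-CRE transgene, whose promoter is active in excitatory neurons of the forebrain, removes a floxed Chd8. Its whole cortices are, by their titles, 6 Camk2a-CRE Chd8+/flox mice (Cre-positive) and 8 Chd8+/flox mice without Cre (Cre-negative). The protocol text instead counts 6 WT and 8 heterozygous floxed animals for these cortices, and the titles were followed here. By the titles, every animal of that comparison carried 1 floxed copy, and Cre itself and the deletion cannot be told apart. In the conditional fractions all genotypes are labelled Camk2a-CRE: 6 HET, 3 HOM (both copies floxed) and 4 WT nuclear libraries, and 5 HET, 5 HOM and 4 WT synaptic libraries. Cells outside the Cre-expressing population keep Chd8 in this line, so bulk tissue holds deleted and undeleted cells. Nuclear and synaptic fractions came in part from the same animals (5 HET and 10 WT germline and 12 conditional animals have both), and the fractions were separated with chemical extraction reagents rather than gradients. Single-nucleus data of the same study were not analysed here.

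The fractions held 23.2 to 56.6 M counted reads per library, germline cortices 19 to 30.5 M and conditional cortices 98.1 to 134.6 M. Some libraries stood apart or went against their labels. Synaptic WT males 1 and 2 of the germline line had 680 and 960 CPM (counts per M counted reads) of the nuclear RNA Malat1, against 19.8 to 184 CPM in the other 16 synaptic libraries. In germline nuclear libraries, WT male 7 had 0 CPM of the Y-linked Ddx3y and 573 CPM of Xist, which goes against its label, while HET female 4 had no Ddx3y, as in females, but 0.43 CPM of Xist. In the conditional fractions, HET male 1 had no Cre reads in either fraction, and 1 animal was labelled HET in its nuclear library and HOM in its synaptic library. Cre reads numbered 460 to 630 in each Cre-positive cortex and 0 in each Cre-negative one. Where leaving out these libraries ended a call, made one or moved a called value or a count by more than 1.5 times, the value without them stands beside the result.

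High-confidence autism genes fall broadly into regulators of gene expression and genes of neuronal communication, and the 41 genes are mostly of the first kind. Many are dosage sensitive in humans: loss of a single working copy of ADNP, POGZ, DYRK1A, MYT1L, TCF4 or CUL3 is enough to cause a neurodevelopmental disorder. Some of their RNAs are also carried into dendrites and axons, where FMRP, the product of Fmr1, binds neuronal mRNAs and represses their translation.

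All 41 genes passed the filter on low counts and were tested in every comparison. Most of them are long. The median summed exon length was 9.59 kb (3.4 to 35 kb), against 4.03 kb over all genes tested in germline cortex, and the median gene span was 94.2 kb (4.1 to 2240 kb) against 21.3 kb. Per kb of exon, the most abundant in WT germline cortex was Celf4, a regulator of neuronal mRNA stability and translation, at 71.3 CPM per kb. It was followed by the RNA helicase Ddx3x at 52.2, the neuronal RNA-binding protein Elavl3 at 40.2 and the transcriptional co-regulator Irf2bpl at 30.8 CPM per kb. At the low end stood Auts2 at 4.05, the methyl-CpG-binding-domain gene Mbd5 at 3.37, Adnp at 1.59 and the katanin-like microtubule gene Katnal2 at 1.18 CPM per kb. The level of Adnp is uncertain, since 82.1% of its 5350 exon bases lie in exons of Gm20716 on the same strand, and reads in shared exons can be dropped or split in counting. Adnp had 0.257 to 13.2 CPM over all libraries (10 to 338 reads), and Gm20716 had 0 reads in every library. Of the others, 27.3% of the exon bases of Ube3a and 10.8% of those of Phf12 lie opposite exons of another gene. Where reads were counted without strand, as in conditional cortex, those reads cannot be told apart, and for the remaining tables the use of strand is not stated.

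Several members are relatives that differ in level. In WT germline cortex, on the same per-length scale, Gigyf1 had 17.8 and Gigyf2 5.65 CPM per kb; both encode adaptors that repress translation. The mTOR inhibitors Tsc2 and Tsc1, which work as 1 complex, had 15.8 and 8.16. The ankyrins Ank2 and Ank3, which anchor membrane proteins to the axonal cytoskeleton, had 21.5 and 12. The Mediator kinase-module subunits Med13l and Med13 were closer, at 9.57 and 7.71. Among the ligase genes, the cullin scaffold Cul3 had 29.6, Trip12 11.3 and Ube3a, the Angelman syndrome gene, 4.13 CPM per kb.

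Chd8 itself was examined first as a check of the labels. In germline cortex it had 62 ± 10.7 CPM in HET mice and 93.0 ± 12.9 CPM in WT mice (SD, n = 16 and 15), a log2 fold change of −0.58 (SE 0.0755, edgeR adjusted p = 7.89e-05). In germline nuclear libraries it had 118 ± 17.7 CPM in HET and 116 ± 11.1 CPM in WT, a log2 fold change of −0.01 that did not pass the test. In germline synaptic libraries it had 34.9 ± 4.24 CPM in HET and 65.4 ± 26.3 CPM in WT (log2 fold change −0.82, edgeR adjusted p = 0.308); without WT males 1 and 2 the difference was −0.67 with an edgeR adjusted p of 0.000222. Cytosolic Chd8 was 64.3 ± 6.63 CPM in HET and 86.8 ± 5.64 CPM in WT (log2 fold change −0.43, edgeR adjusted p = 0.92). In the conditional line none of the 5 differences passed the adjusted test: the log2 fold change was −0.52 in Cre-positive cortex, −0.06 in HET and −0.47 in HOM nuclear libraries, and −0.21 in HET and −0.57 in HOM synaptic libraries. In bulk samples, fewer cells of a type and less RNA per cell cannot be told apart, here and in all results that follow.

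In none of the 9 genotype comparisons did any of the 41 genes pass the test, which called a gene at a Benjamini-Hochberg adjusted p under 0.05 over all genes (edgeR). That is 0 of 369 member tests, of which 13 had an unadjusted p under 0.05. In germline cortex the same test called 57 of 17074 genes, 0.334% of them, so at that share fewer than 1 of 41 genes would be called. The tests bounded the size of the changes in the germline line: the 95% interval of the log2 fold change lay within ±0.5 for 41 of 41 genes in cortex, 40 in nuclear, 38 in synaptic and 39 in cytosolic libraries. The 95% intervals were wider in the conditional line, where 13 of 41 lay within those bounds in whole cortex, 38 in HET and 31 in HOM nuclear libraries, and 40 in HET and 39 in HOM synaptic libraries. Katnal2 and Trip12 had a log2 fold change below 0 in all 9 comparisons, and no gene was above 0 in all 9. Several of these comparisons share their WT libraries, and the nuclear and synaptic ones share animals, so these signs are not independent of each other.

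**Figure D1:**
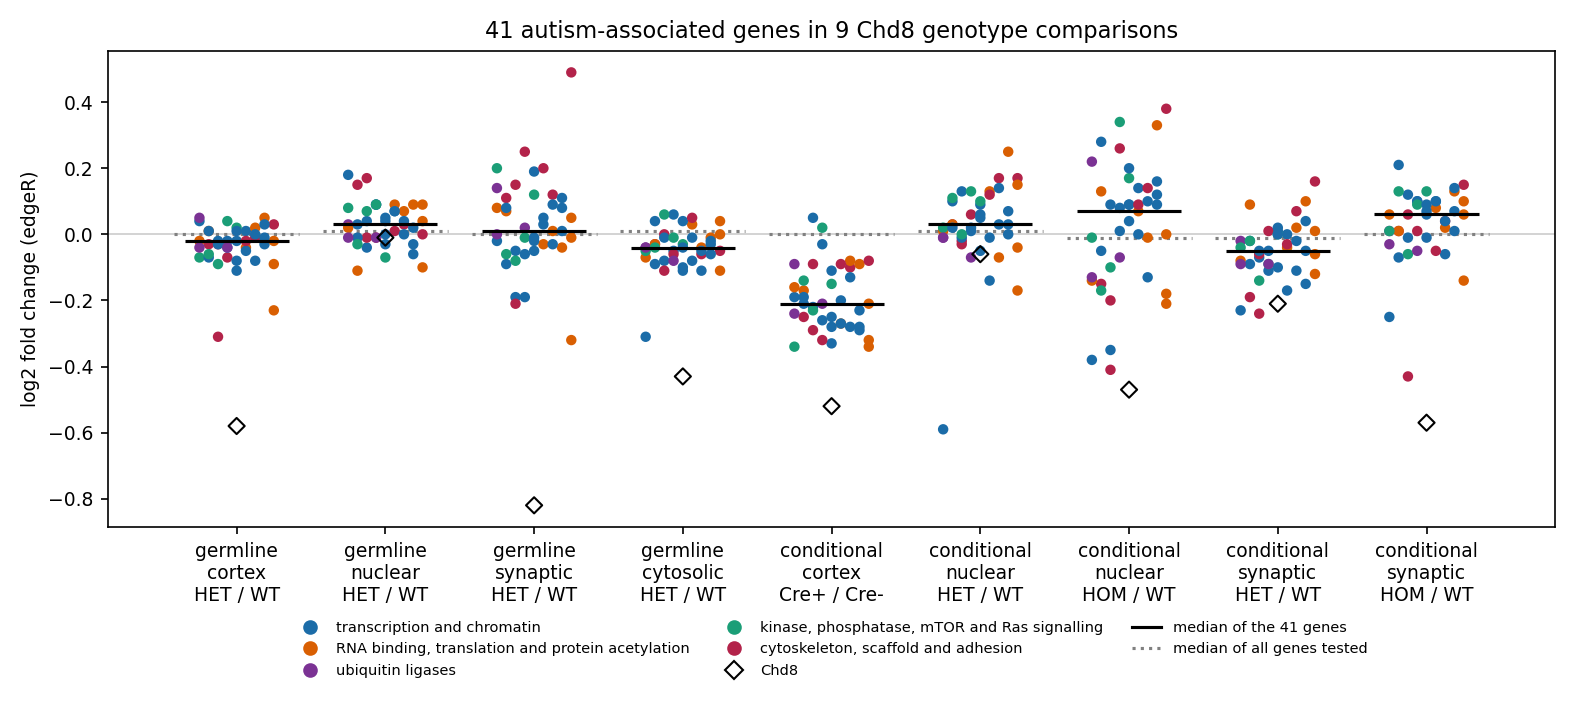
Log2 fold change (vertical axis) of each of the 41 genes in the 9 genotype comparisons (horizontal axis), coloured by role, with Chd8 as diamonds and lines for the median of the 41 genes and of all genes tested. The members' medians lie between −0.05 and 0.07 in 8 comparisons and at −0.21 in conditional cortex, where 39 of 41 genes are below 0; none of the 41 genes passed the adjusted test in any comparison.

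In germline cortex, the members lay slightly below the other genes. Of 41, 12 had a log2 fold change above 0, with a median of −0.02, against 49.5% of all genes above 0 and a median of 0.00. Genes at or above a log2 CPM of 3 were also split by exon length into 4 classes of equal size. In the longest class, which held 28 members, 33.8% of genes were above 0 (median −0.02), against 75.8% in the shortest. At an unadjusted p under 0.05 stood 2 members, against 9.25% of all genes. By role, 5 of the 18 transcription and chromatin genes, 3 of the 8 RNA-binding and translation genes, 1 of the 3 ligase genes, 2 of the 5 signalling genes and 1 of the 7 cytoskeleton and adhesion genes were above 0. The role medians ran from −0.06 to −0.02. The sign of the members depended on the batch label: 18 of 41 were above 0 within the label CHD807 and 1 of 41 within CHD80456, with medians of −0.01 and −0.06.

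Katnal2, which encodes a relative of the microtubule-severing enzyme katanin, had the smallest p of the 41 in germline cortex. Its level was 3.87 ± 0.614 CPM in HET (lowest 3.12, median 3.77, highest 5.3, n = 16) and 4.79 ± 0.726 CPM in WT (lowest 3.36, median 5.0, highest 5.75, n = 15). The groups overlapped. The log2 fold change of Katnal2 was −0.31 (SE 0.0867, 95% interval −0.49 to −0.14), with an unadjusted p of 0.000997 and an edgeR adjusted p of 0.13. Within the batch labels it was −0.24 in CHD807 and −0.38 in CHD80456. In the conditional line Katnal2 also had values below 0 that did not pass the test. Its nuclear levels were 4.28, 5.77 and 4.57 CPM in the 3 HOM libraries and 7.5, 6.02, 4.9 and 7.86 CPM in the 4 WT libraries (log2 fold change −0.41, edgeR adjusted p = 0.501). In synaptic libraries Katnal2 had 2.81, 6.18, 3.98, 4.38 and 2.65 CPM in HOM and 7.11, 5.05, 4.14 and 5.51 CPM in WT (log2 fold change −0.43, edgeR adjusted p = 0.923). The ranges overlapped in both fractions, and at these levels Katnal2 is among the least abundant of the 41.

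Auts2, which encodes a transcriptional regulator and cytoskeletal protein of developing neurons, had 85.7 ± 9.64 CPM in HET and 92.8 ± 11.3 CPM in WT cortex (log2 fold change −0.11, edgeR adjusted p = 0.479). The members with the smallest p above 0 were Celf4, at 634 ± 44.8 CPM in HET and 612 ± 51.2 CPM in WT (0.05), and the phosphatase subunit Ppp2r5d, at 97.8 ± 7.58 and 95.1 ± 7.73 CPM in HET and WT (0.04). Both differences are smaller than 1 SD of either group. Among these cortices, astrocyte markers leaned upward in HET (11 of 11 above 0, median 0.11, none called) and choroid plexus markers downward (0 of 9 above 0, 2 called). Summed choroid plexus markers ranged from 6.31 to 50.1 CPM in HET and from 10.9 to 572 CPM in WT. The part of these cells in the members' values was not tested.

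In germline nuclear libraries 0 of 41 genes were called, against 3 of 19912 genes (0.0151%), the lowest adjusted p of a member was 0.825, and no member had an unadjusted p under 0.05, against 7.38% of all genes. The 2 ankyrins had the smallest p above 0. Ank2 had 868 ± 195 CPM in HET and 764 ± 126 CPM in WT (log2 fold change 0.15), and Ank3 had 482 ± 158 CPM in HET and 414 ± 81.6 CPM in WT (0.17), each with a spread wider than the difference. With a term for every batch label Ank2 was at −0.17 and Ank3 at −0.16, and 6 of the 41 genes were above 0 (26 without that term) with a median of −0.07. Below 0, Ddx3x had 198 ± 32.3 CPM in HET and 208 ± 24.9 CPM in WT (−0.11), and the kinase gene Dyrk1a had 61.4 ± 4.36 CPM in HET and 63.9 ± 4.49 CPM in WT (−0.07). Endothelial and mural markers were below 0 in all 15 measured genes in the same libraries (13 with an unadjusted p under 0.05). Their sums ranged from 1406 to 2676 CPM in HET and from 1638 to 3674 CPM in WT. Their part in the members' values was not tested.

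In germline synaptic libraries 0 of 41 members and 0 of 17178 genes (0%) were called, while 5 members and 11% of all genes had an unadjusted p under 0.05. Cntnap2, which encodes a neurexin-family adhesion protein of axons, had the smallest p. It had 256 ± 50 CPM in HET (lowest 168, median 260, highest 322, n = 7) and 172 ± 78.1 CPM in WT (lowest 55.4, median 186, highest 280, n = 11). WT males 1 and 2 stood at 59.3 and 55.4 CPM, below every HET library, and the other WT libraries overlapped the HET range. The log2 fold change of Cntnap2 was 0.49 (SE 0.172, 95% interval 0.13 to 0.85, edgeR adjusted p = 0.343), and 0.32 (SE 0.0902, adjusted p = 0.0735) without these 2 libraries. The same 2 libraries had 232 and 197 CPM of Gigyf1, against 30.5 to 56.1 CPM in the other 16. Gigyf1 averaged 40.2 ± 5.3 CPM in HET and 76.1 ± 69.1 CPM in WT, a log2 fold change of −0.32 with them and −0.11 without them.

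The other synaptic members with the smallest p were Spast, which encodes a microtubule-severing enzyme, at 59.8 ± 6.77 CPM in HET and 51.7 ± 3.42 CPM in WT (log2 fold change 0.20, edgeR adjusted p = 0.37), and the transcription factor gene Deaf1 at 38.5 ± 6.53 CPM in HET and 47.3 ± 5.01 CPM in WT (−0.19, adjusted p = 0.455). The adhesion molecule gene Dscam had 111 ± 22.6 CPM in HET and 87.5 ± 28.6 CPM in WT (0.25). The Ras inhibitor gene Nf1 had 111 ± 12.4 CPM in HET and 94.2 ± 19.6 CPM in WT (0.20). Ldb1, a cofactor of LIM-domain transcription factors, had 55.1 ± 5.34 CPM in HET and 73 ± 27.3 CPM in WT (−0.19). Without WT males 1 and 2, 32 of the 41 genes were above 0 (22 with them), the median was 0.06 (0.01 with them) and 6 had an unadjusted p under 0.05. None was called there either, while 142 of 16862 genes (0.842%) were, and 19% had an unadjusted p under 0.05. Nuclear-retained RNAs summed to 524 to 1943 CPM in HET synaptic libraries (median 1311) and to 1158 to 26094 CPM in WT (median 1995), and their part in these values was not tested.

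In germline cytosolic libraries 0 of 41 members and 0 of 18454 genes (0%) were called, and none of the 41 had an unadjusted p under 0.05, against 3.28% of all genes. Of the 41, 9 were above 0, with a median of −0.04 against 0.01 for all genes. Auts2 had 105 ± 8.19 CPM in HET and 114 ± 9.97 CPM in WT (log2 fold change −0.10), and Tcf20, a transcriptional coactivator gene, 125 ± 12.5 and 136 ± 13.4 CPM in HET and WT (−0.11). Above 0, Ldb1 had 88.8 ± 6.07 CPM in HET and 88.8 ± 7.27 CPM in WT (0.06 after the sex term), and Spast 86.1 ± 3.06 CPM in HET and 83.2 ± 2.48 CPM in WT (0.05). The edgeR adjusted p was 1 for these 4 genes. With the replicate number as a block, 17 of the 41 had an unadjusted p under 0.05, all below 0 and none called, against 18.6% of all genes.

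Whole cortex of the conditional line gave the largest common shift. Of the 41 genes, 39 were lower in Cre-positive than in Cre-negative cortex, with a median log2 fold change of −0.21 against 0.00 over all genes. No member and no gene (0 of 21798, 0%) was called, no member had an unadjusted p under 0.05, and 3.08% of all genes did. The groups overlapped: the mean log2(CPM + 0.5) of the 41 genes in a library ran from 5.55 to 6.61 in Cre-positive mice (median 6.2, n = 6) and from 5.85 to 6.78 in Cre-negative mice (median 6.35, n = 8). In the germline cortices the same mean was 6.49 to 6.91 in HET and 6.65 to 6.95 in WT, a narrower spread. Leaving out each conditional library in turn moved the members' median between −0.35 and −0.10. All 5 roles had medians below 0, from −0.23 for transcription and chromatin to −0.10 for cytoskeleton and adhesion.

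The members with the smallest p in conditional cortex were Tcf4, the Pitt-Hopkins syndrome transcription factor gene, at 275 ± 76.5 CPM in Cre-positive and 333 ± 64.1 CPM in Cre-negative mice (log2 fold change −0.29), and Gigyf1 at 28.8 ± 9.59 and 36.1 ± 8.59 CPM in Cre-positive and Cre-negative mice (−0.34). The edgeR adjusted p was 0.882 for both. The 2 members above 0 were Deaf1 at 56.9 ± 5.78 CPM in Cre-positive and 55.1 ± 5.63 CPM in Cre-negative mice (0.05), and Ppp2r5d at 102 ± 15.4 and 100 ± 14.2 CPM in Cre-positive and Cre-negative mice (0.02).

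Fold change followed transcript length among all genes of this experiment. Genes at or above a log2 CPM of 3 were split by exon length into 4 classes of equal size. From the shortest to the longest class, the median log2 fold change was 0.12, 0.03, −0.05 and −0.15, and 84.6%, 59.0%, 37.3% and 17.9% of the genes were above 0. In classes 2, 3 and 4 from the shortest lay 4, 7 and 28 of the members (none lay in class 1, and Adnp and Katnal2 were below the minimum level), with medians of 0.00, −0.17 and −0.24. In germline cortex the medians of all genes over the same 4 classes were 0.05, 0.02, 0.00 and −0.02, and those of the members 0.01, −0.02 and −0.03. There 75.8%, 59.3%, 48.4% and 33.8% of the genes in these classes were above 0. Nuclear-retained RNAs summed to 1321 to 1926 CPM in Cre-positive cortex (median 1682) and to 1388 to 4125 CPM in Cre-negative cortex (median 2251), and these ranges overlapped. Oligodendrocyte markers summed to 6500 to 13638 CPM in Cre-positive cortex (median 9894) and to 6024 to 14710 CPM in Cre-negative cortex (median 8471), and all 10 had a log2 fold change above 0 (median 0.14, none called). The 2 Cre-positive libraries of lowest member mean, at 5.55 and 5.78, had oligodendrocyte sums of 12976 and 13638 CPM, while the Cre-positive library of highest member mean (6.61) had 6500 CPM and the Cre-negative one (6.78) 6024 CPM. The highest sum, 14710 CPM, stood in a Cre-negative library with a member mean of 6.03. Excitatory neuron markers summed to 4839 to 11209 CPM in Cre-positive cortex (median 8390) and to 7348 to 10621 CPM in Cre-negative cortex (median 8970). The part of transcript length, RNA quality and cell composition in the members' values was not tested.

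**Figure D2:**
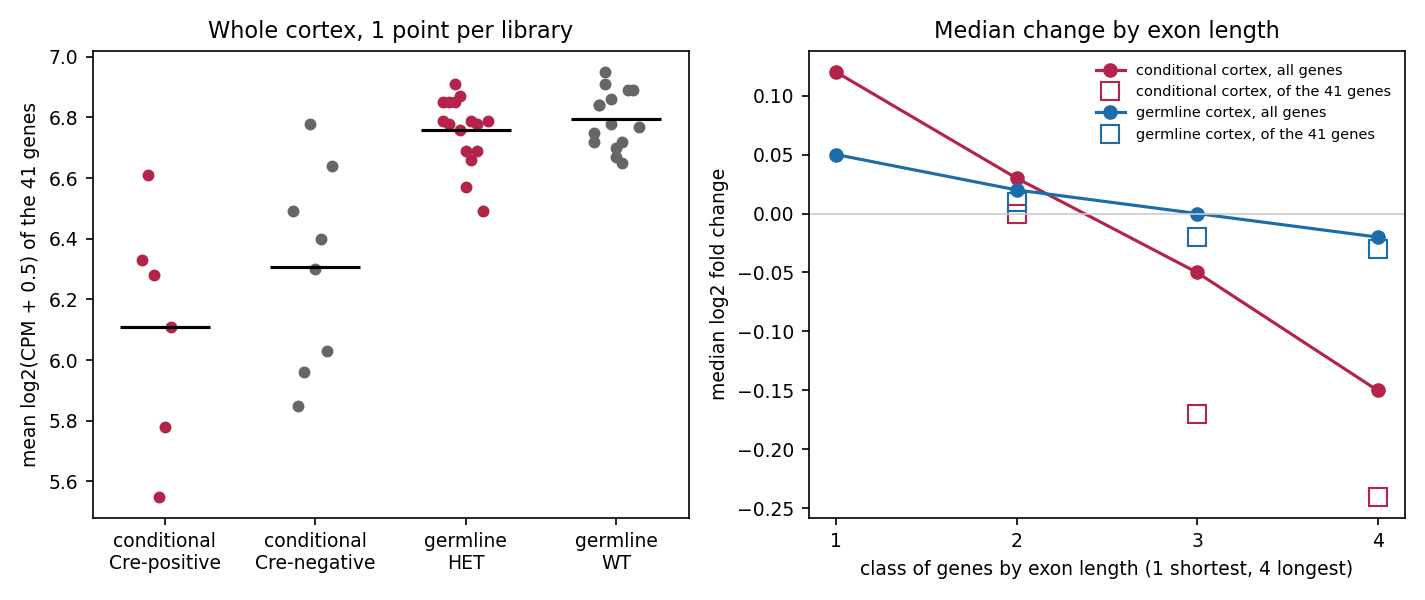
Left, mean log2(CPM + 0.5) of the 41 genes in each whole-cortex library (points) of the conditional and germline lines. Right, median log2 fold change by exon-length class for all genes and for the 41 genes; in the conditional line both fall below 0 with length, to −0.15 for all genes and −0.24 for members in the longest class, while Cre-positive and Cre-negative libraries overlap at left.

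In the conditional fractions, 0 of 41 members were called in each of the 4 comparisons, and so were 0 of 21133 genes (0%) in nuclear and 0 of 17505 genes (0%) in synaptic libraries. In HET nuclear libraries no member had an unadjusted p under 0.05, against 4.45% of all genes, 26 of 41 were above 0 and the median was 0.03. Celf4 had 413 to 670 CPM in the 6 HET libraries (median 542) and 469, 382, 470 and 506 CPM in the 4 WT libraries (log2 fold change 0.25, edgeR adjusted p = 0.933). Tnrc6b, which encodes a scaffold of microRNA-guided silencing, had 114 to 143 CPM in HET (median 129) and 142, 153, 149 and 136 CPM in WT (−0.17). The scaffold kinase gene Cask (0.17) and Adnp (−0.59, unadjusted p = 0.0939) were the other members with the smallest p in their directions. Without the HET male that lacks Cre reads Adnp was at −0.87 (unadjusted p = 0.0179, edgeR adjusted p = 1) and was the 1 member under 0.05, against 3.2% of all genes. Without the animal of 2 genotype labels that member was Celf4 (0.31, unadjusted p = 0.0487, adjusted p = 0.85), against 5.5% of all genes.

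In HOM nuclear libraries 2 members, against 11.6% of all genes, had an unadjusted p under 0.05. Irf2bpl had 67.9, 70.4 and 63 CPM in the 3 HOM libraries and 59.0, 51.4, 55.9 and 53.8 CPM in the 4 WT libraries. These groups did not overlap, but how many of all genes also had groups without overlap was not counted. The log2 fold change of Irf2bpl was 0.28 with an edgeR adjusted p of 0.429. Pogz, which encodes a zinc finger protein that binds heterochromatin protein HP1, had 66.0, 86.5 and 94.2 CPM in HOM and 93.4, 117, 101 and 108 CPM in WT. The highest HOM library of Pogz lay just above the lowest WT library, and the log2 fold change was −0.35 with an adjusted p of 0.428. Celf4 had 636, 467 and 637 CPM in HOM nuclear libraries, against the WT values above (0.33, adjusted p = 0.446). Without the HET male that lacks Cre reads, which shares the fit, Ppp2r5d (0.37, unadjusted p = 0.0245, adjusted p = 0.299) was also under 0.05, against 14.6% of all genes.

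In HET synaptic libraries 3 members, against 4.37% of all genes, had an unadjusted p under 0.05, and all 3 were below 0. Ank3 had 348, 447, 460, 465 and 558 CPM in HET and 459, 572, 552 and 589 CPM in WT (log2 fold change −0.24, edgeR adjusted p = 0.995). Ank2 had 675, 795, 720, 779 and 801 CPM in HET and 764, 910, 887 and 898 CPM in WT (−0.19). In both ankyrins 1 WT library lay among the HET values and the other WT libraries above most of them. Myt1l, a neuronal transcription repressor gene, had a log2 fold change of −0.15 (unadjusted p = 0.0485). Above 0, Cntnap2 had 224, 266, 315, 234 and 294 CPM in HET and 241, 249, 230 and 232 CPM in WT (0.16, adjusted p = 0.995), and Ddx3x had a log2 fold change of 0.09. Without the HET male that lacks Cre reads no member had an unadjusted p under 0.05, against 5.95% of all genes: Ank3 was at −0.21 (unadjusted p = 0.081), Ank2 at −0.18 (0.0703) and Myt1l at −0.15 (0.0818).

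In HOM synaptic libraries 1 member, against 4.96% of all genes, had an unadjusted p under 0.05. It was Irf2bpl, with 63.2, 69.2, 65.9, 68.9 and 51.8 CPM in HOM and 49.8, 54.6, 59.8 and 56.5 CPM in WT (log2 fold change 0.21, edgeR adjusted p = 0.923). Here 4 of the 5 HOM libraries lay above all 4 WT libraries. Nuclear and synaptic libraries share animals, so the nuclear and synaptic values of Irf2bpl are not independent. Dyrk1a had 77.4, 68.6, 79.8, 85.3 and 82.8 CPM in HOM and 68.8, 73.6, 74.3 and 68.0 CPM in WT (0.13). Gigyf1 had 36.5, 39.9, 40.7, 33.4 and 29.6 CPM in HOM and 47.4, 38.4, 37.8 and 35.8 CPM in WT (−0.14). None of these differences passed the test. Without the animal of 2 genotype labels Irf2bpl was at 0.17 (unadjusted p = 0.101), and the 1 member under 0.05 was Katnal2 (−0.65, unadjusted p = 0.0056, edgeR adjusted p = 0.837), against 5.93% of all genes.

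The other gene lists of related function gave the same count of 0 called genes in every genotype comparison. In germline cortex, 12 of 50 further autism genes (remodellers, channels and synaptic genes among them) were above 0, with a median of −0.04 and 5 at an unadjusted p under 0.05. Of 28 mTOR and Ras pathway genes, 16 were above 0 (median 0.00, 2 under 0.05), of 20 partners of FMRP and the GIGYF proteins 7 were (median −0.03, 0 under 0.05), and of 27 Mediator subunits 15 were (median 0.02, 3 under 0.05). In conditional cortex 1 of the 50 further autism genes was above 0, with a median of −0.26, while 15 of 27 Mediator subunits were above 0 with a median of 0.04.

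Between fractions the 41 genes differed far more than between genotypes. Synaptic and nuclear libraries of the same animals were compared with the animal as a block, in 5 germline HET, 10 germline WT and 12 conditional pairs. In HET animals 22 members were higher and 8 lower in the synaptic fraction, against 34.5% of all 18914 genes higher and 38.5% lower. In WT animals 20 members were higher and 2 lower, against 30.8% and 35.1% of 18879 genes. In conditional animals 24 were higher and 6 lower, against 37.7% and 40.7% of 18078 genes. The median log2 fold change, synaptic over nuclear, was 0.34, 0.23 and 0.26 for the members in HET, WT and conditional animals, and −0.04, −0.06 and −0.04 for all genes. Of the 41, 35 had the same sign in all 3 sets.

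The number of members called higher depended on the scaling. TMM scaling sets the typical gene to about 0. With library totals alone, the median of all genes was −0.65, −0.56 and −0.55 in HET, WT and conditional animals, and the members called higher and lower became 4 and 22, 5 and 27, and 6 and 24. At these totals 13.5%, 9.71% and 15.7% of all genes were called higher and 56.8%, 54.6% and 66.2% lower. Of the members called higher with TMM, 11 of 22, 9 of 20 and 11 of 24 were still above 0. Cntnap2, Dscam and Cul3 were called higher under both scalings in all 3 sets, and every member called lower with TMM was also lower with library totals. Under both, the members' median lay 0.38, 0.30 and 0.29 above that of all genes in HET, WT and conditional animals, and 31, 31 and 32 of the 41 lay above the median of all genes. The fold changes below are therefore relative to the typical RNA of each fraction. The medians of all genes above include genes of low level. At or above a log2 CPM of 3, medians over the 4 exon-length classes, shortest to longest, were 0.53, 0.30, 0.18 and 0.09 in HET animals. They were 0.39, 0.22, 0.13 and 0.05 in WT and 0.27, 0.24, 0.17 and 0.14 in conditional animals. In classes 2, 3 and 4 the members' medians were −0.02, 0.41 and 0.29 in HET and 0.25, 0.13 and 0.24 in WT animals. In conditional animals these were 0.16, 0.21 and 0.30. The longest class held 28 members. In class 2, members lay below all genes in HET and conditional animals. As a check of the fractions, all 15 endothelial and mural markers were lower in synaptic libraries (medians −4.27, −3.93 and −2.75 in HET, WT and conditional animals), nuclear-retained RNAs were below 0 in 9 of 9 (−4.49, −2.76 and −3.09), and 12, 11 and 12 of 13 dendritic and synaptic RNAs were called higher (medians 0.98, 1.03 and 0.57).

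**Figure D3:**
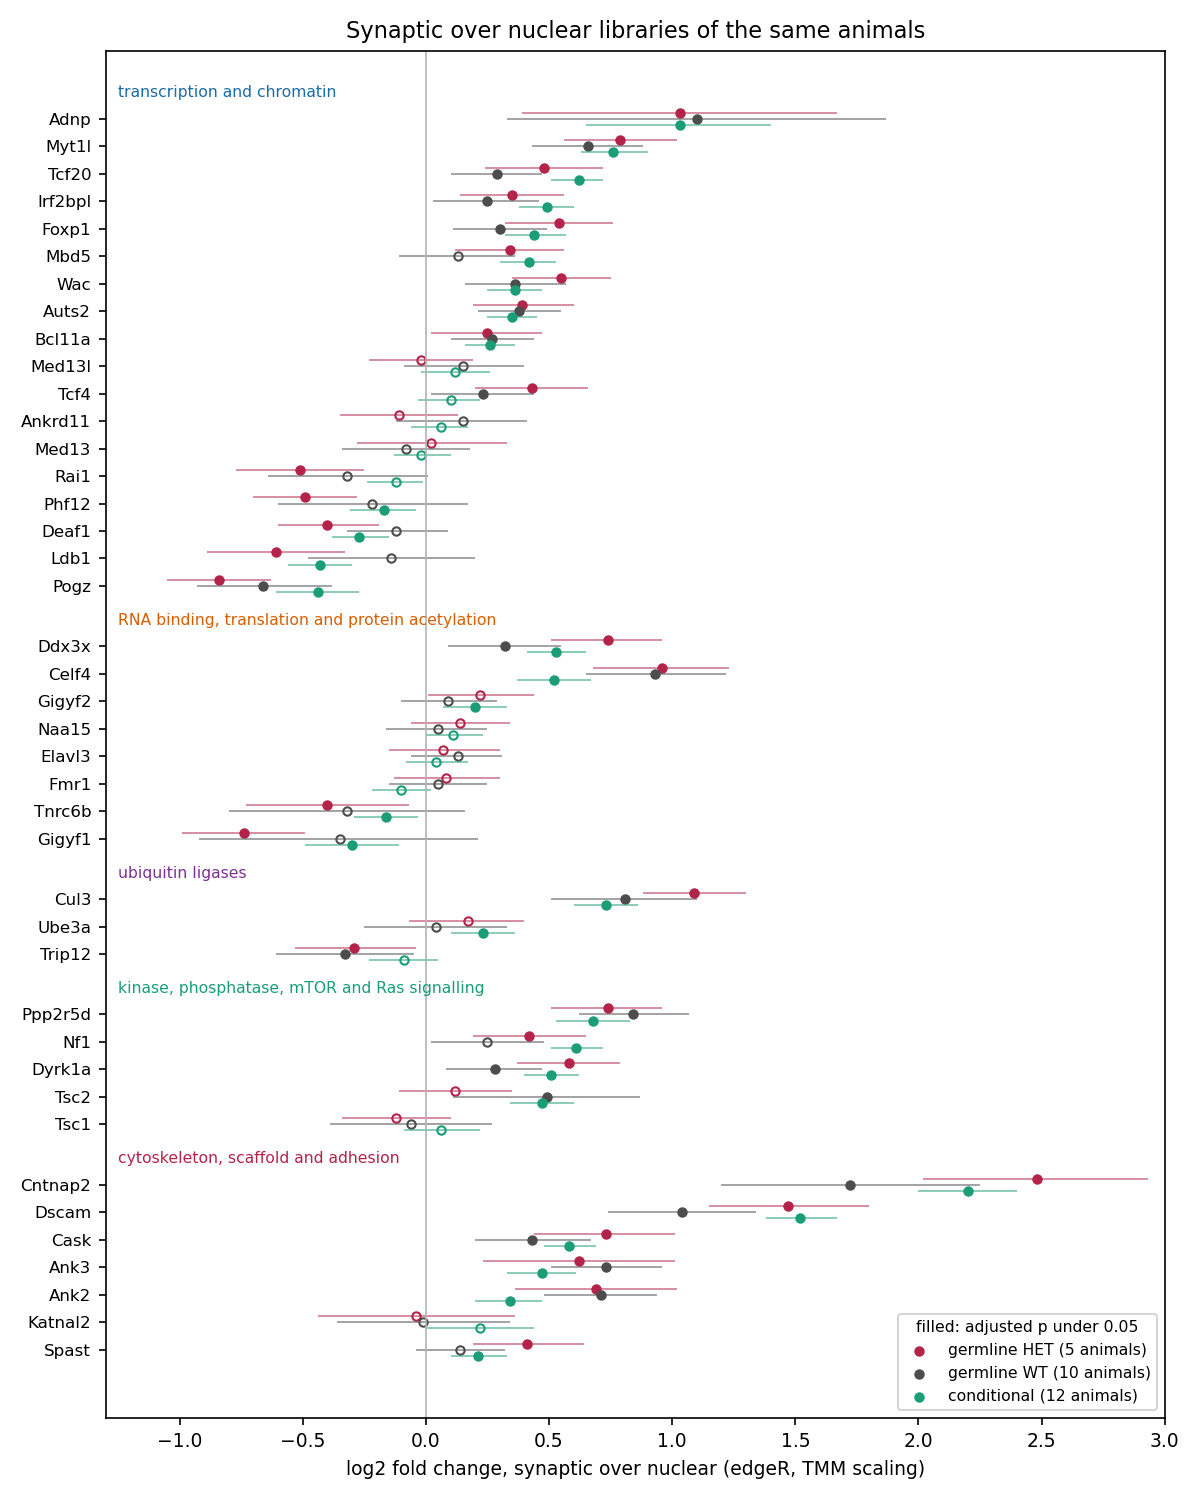
Log2 fold change, synaptic over nuclear, of each of the 41 genes (rows, grouped by role) in germline HET, germline WT and conditional animals, with 95% intervals; filled points passed the adjusted test. Cntnap2 lies farthest to the right in all 3 sets (2.48, 1.72 and 2.20) and Pogz at −0.84, −0.66 and −0.44, while the transcription and chromatin genes spread to both sides.

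Cytoskeleton, scaffold and adhesion genes were the role with the largest share called higher. These were 6, 5 and 6 of 7 in HET, WT and conditional animals, against 34.5%, 30.8% and 37.7% of all genes, and none was called lower. With library totals alone, 5, 4 and 3 of 7 were above 0. Cntnap2 (chromosome 6, 45059357 to 47304213, plus strand, GRCm38) led the 41 genes. Over the pairs it averaged 321 ± 73.2 CPM in synaptic and 58.0 ± 13.4 CPM in nuclear libraries of HET animals, 206 ± 101 and 55.2 ± 13.3 CPM in those of WT animals, and 309 ± 34.1 and 67 ± 14.6 CPM in those of conditional animals. Its synaptic value was the higher in 5 of 5, 10 of 10 and 12 of 12 animals. The log2 fold changes of Cntnap2 were 2.48 (SE 0.205), 1.72 (SE 0.244) and 2.20 (SE 0.0961), with edgeR adjusted p of 1.77e-06, 9.46e-05 and 1.85e-14.

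Dscam (chromosome 16, 96590840 to 97170752, minus strand) was next. Its paired means were 141 ± 32.3 CPM in synaptic and 50.3 ± 8.31 CPM in nuclear libraries of HET animals, 104 ± 36.7 and 48.4 ± 10.2 CPM in those of WT animals, and 124 ± 14.2 and 42.2 ± 6.27 CPM in those of conditional animals. It was higher in the synaptic library of every pair. The log2 fold changes of Dscam were 1.47, 1.04 and 1.52 (edgeR adjusted p = 5.73e-06, 7.4e-05 and 3.26e-14). Among the other genes of this role, Ank2 (0.69, 0.71 and 0.34), Ank3 (0.62, 0.73 and 0.47) and Cask (0.73, 0.43 and 0.58) passed the test in all 3 sets, and Spast in 2 (0.41 in HET and 0.21 in conditional animals). Without WT males 1 and 2, 6 of 7 were called higher in WT animals, Spast among them (0.18, edgeR adjusted p = 0.0476). Katnal2 passed in none.

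Signalling genes were called higher in 3, 3 and 4 of 5 cases in HET, WT and conditional animals, against 34.5%, 30.8% and 37.7% of all genes. None was called lower while every animal was kept, and 1, 1 and 2 of 5 were above 0 with library totals alone. Ppp2r5d, a regulatory subunit of the phosphatase PP2A, had log2 fold changes of 0.74, 0.84 and 0.68 in HET, WT and conditional animals, and stayed above 0 with library totals. The 2 subunits of the tuberous sclerosis complex differed: Tsc2 had 0.12, 0.49 and 0.47, past the test in WT and conditional animals, and Tsc1 had −0.12, −0.06 and 0.06, past it in none. Nf1 had 0.42, 0.25 and 0.61, past the test in HET and conditional animals (edgeR adjusted p = 0.0502 in WT). Without WT males 1 and 2, 4 of the 5 were called higher in WT animals and 1 lower: Tsc1 was at −0.28 (adjusted p = 0.0217), Tsc2 at 0.21 (adjusted p = 0.0349) and Nf1 at 0.27 (adjusted p = 0.0381).

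Of the 3 ligase genes, Cul3 was synaptic and Trip12 was not. Cul3 averaged 143 ± 9.09 CPM in synaptic and 67.3 ± 3.8 CPM in nuclear libraries of HET animals, 123 ± 31.6 and 67.5 ± 6.65 CPM in those of WT animals, and 195 ± 15.4 and 116 ± 16.3 CPM in those of conditional animals. The synaptic library was the higher in 5 of 5, 9 of 10 and 12 of 12 pairs, and the log2 fold changes of Cul3 were 1.09, 0.81 and 0.73 (edgeR adjusted p = 2.32e-06, 0.000316 and 4.98e-10). Trip12 had −0.29, −0.33 and −0.09, past the test in HET and WT animals. In WT animals Trip12 missed the threshold when any of 7 of the 10 animals was left out (−0.34 to −0.24, edgeR adjusted p = 0.0513 to 0.103), and without males 1 and 2 it was −0.49 (adjusted p = 0.000926). Ube3a had 0.17, 0.04 and 0.23, called in conditional animals, with the overlap on the opposite strand given above.

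Among RNA-binding and translation genes, Celf4 and Ddx3x were higher in synaptic libraries in all 3 sets; with library totals alone Ddx3x in WT animals was at −0.18, and both were at 0.01 in conditional animals. Celf4 averaged 629 ± 17.4 CPM in synaptic and 328 ± 51 CPM in nuclear libraries of HET animals, 643 ± 158 and 328 ± 59.8 CPM in those of WT animals, and 643 ± 114 and 435 ± 71.3 CPM in those of conditional animals, with log2 fold changes of 0.96, 0.93 and 0.52. The values of Ddx3x were 0.74, 0.32 and 0.53. Fmr1, Elavl3 and the acetyltransferase subunit gene Naa15 passed in none. The 2 GIGYF genes went different ways. Gigyf1 averaged 49 ± 4.64 CPM in synaptic and 84.1 ± 22.9 CPM in nuclear libraries of HET animals, and 46.3 ± 5.55 and 56.0 ± 9.41 CPM in those of conditional animals (log2 fold changes −0.74 and −0.30, edgeR adjusted p = 0.000137 and 0.00471). In WT animals Gigyf1 averaged 93.9 ± 83.2 CPM in synaptic and 93.1 ± 21 CPM in nuclear libraries (−0.35, adjusted p = 0.241), and it was −0.77 (adjusted p = 7.87e-06) without males 1 and 2. Gigyf2 had 0.22, 0.09 and 0.20, past the test in conditional animals. Without these males Tnrc6b too was called lower in WT animals (−0.61, adjusted p = 0.00291).

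Transcription and chromatin genes, whose proteins act in the nucleus, had RNAs on both sides. In synaptic libraries of HET, WT and conditional animals, 10, 9 and 9 of 18 were called higher, against 34.5%, 30.8% and 37.7% of all genes. Called lower were 5, 1 and 4 of 18, against 38.5%, 35.1% and 40.7% of all genes. With library totals alone, 2, 2 and 3 of 18 were above 0. Those called higher in all 3 sets were Adnp, Auts2, Bcl11a, Foxp1, Irf2bpl, Myt1l, Tcf20 and Wac. Myt1l had log2 fold changes of 0.79, 0.66 and 0.76, and averaged 287 ± 31.2 CPM in synaptic and 165 ± 21.2 CPM in nuclear libraries of conditional animals. Adnp had 1.03, 1.10 and 1.03, with the low counts and overlap given above, and 0.43 (edgeR adjusted p = 0.226) and 0.59 (adjusted p = 0.198) with library totals in HET and WT animals. Without WT males 1 and 2 Adnp was at 0.66 in WT animals (adjusted p = 0.033). Irf2bpl missed the threshold in WT animals without the animal of doubtful sex (0.22, adjusted p = 0.0883; 0.25 and 0.045 with it), and so did Tcf4 (0.23, adjusted p = 0.0724). Pogz (chromosome 3, 94837567 to 94882326, plus strand) was the one member called lower in all 3 sets when every animal was kept. It averaged 58.0 ± 5.88 CPM in synaptic and 104 ± 11.7 CPM in nuclear libraries of HET animals, 67.4 ± 21.9 and 102 ± 12.2 CPM in those of WT animals, and 59.8 ± 6.01 and 79.9 ± 12.8 CPM in those of conditional animals. The log2 fold changes of Pogz were −0.84, −0.66 and −0.44 (edgeR adjusted p = 1.28e-05, 0.000718 and 4.14e-05). Ldb1 had −0.61, −0.14 and −0.43 and Deaf1 −0.40, −0.12 and −0.27, both past the test in HET and conditional animals. Rai1, the Smith-Magenis syndrome gene, had −0.51, −0.32 and −0.12, past it in HET animals. Without WT males 1 and 2, 9 of the 18 were called higher and 4 lower in WT animals, with Ldb1 at −0.36 (adjusted p = 0.00565), Rai1 at −0.54 (0.000234) and the co-repressor gene Phf12 at −0.50 (0.000143). The Mediator genes Med13 (0.02, −0.08 and −0.02) and Med13l (−0.02, 0.15 and 0.12) passed in none, nor did the chromatin cofactor gene Ankrd11.

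**Figure D4:**
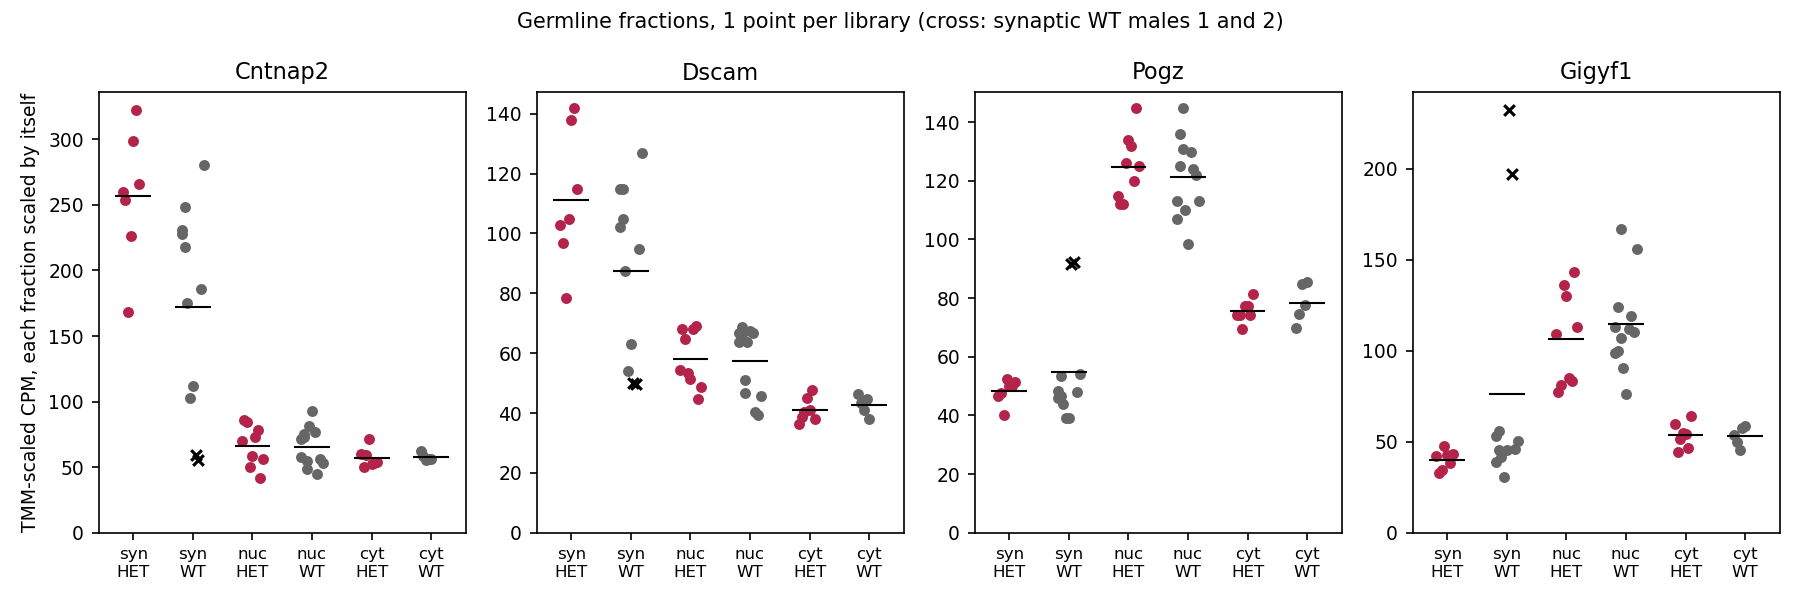
TMM-scaled CPM of Cntnap2, Dscam, Pogz and Gigyf1 in germline synaptic, nuclear and cytosolic libraries of HET and WT mice, each fraction scaled on its own; points are libraries, lines are means and crosses mark synaptic WT males 1 and 2. Gigyf1 stands at 232 and 197 CPM in those 2 libraries against 30.5 to 56.1 CPM in the other 16 synaptic libraries, and Cntnap2 at 59.3 and 55.4 CPM.

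The counts in WT animals rested in part on males 1 and 2. Without them 22 members were higher and 8 lower, against 35% and 40% of all genes, and Gigyf1, Ldb1, Phf12 and Tnrc6b were then, with Pogz, called lower in all 3 sets. Whether the difference between fractions itself differed between HET and WT animals was tested as an interaction. No member and none of 18966 genes (0%) was called, while 7.46% of all genes and 1 member, Ddx3x, had an unadjusted p under 0.05. The interaction of Ddx3x was 0.39 (SE 0.156, edgeR adjusted p = 0.563). Without the animal of doubtful sex, Cntnap2 (0.87, unadjusted p = 0.0302), Dscam (0.51, 0.0273) and Ldb1 (−0.55, 0.038) were under 0.05, each at an edgeR adjusted p of 0.427. Without WT males 1 and 2 the same genes were at 0.48, 0.36 and −0.28 (unadjusted p = 0.166, 0.139 and 0.121). Beside the members, 31, 30 and 36 of the 50 further autism genes were called higher in synaptic libraries of HET, WT and conditional animals and 13, 11 and 13 lower. For these and the next lists, the shares of all genes were 34.5%, 30.8% and 37.7% higher and 38.5%, 35.1% and 40.7% lower. Of 27 Mediator subunits 7, 4 and 9 were called higher and 10, 9 and 13 lower (medians −0.24, −0.17 and −0.13). The mTOR and Ras genes had 15, 15 and 13 of 28 higher and 8, 4 and 6 lower, and the FMRP and GIGYF partners 10, 10 and 11 of 20 higher and 7, 4 and 7 lower. Without males 1 and 2 the WT counts higher and lower became 28 and 14 for the further autism genes, 8 and 13 for Mediator, 17 and 6 for mTOR and Ras genes, and 10 and 5 for the FMRP and GIGYF partners.

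Ddx3x, Fmr1 and Cask lie on the X chromosome, and their levels were compared between labelled females and males in each of the 7 experiments. Ddx3x escapes X inactivation in many tissues and has a Y-linked partner, Ddx3y, that is counted apart. Its mean was higher in females in all 7 experiments, and the two-sided permutation test, adjusted over the 21 tests of 3 genes in 7 experiments, passed 0.05 in 5 of them. For all 3 genes, this test permuted sex over all libraries of an experiment and took no account of genotype or batch. In germline cortex Ddx3x averaged 300 ± 44.3 CPM in females and 256 ± 29.5 CPM in males (n = 16 and 15), a log2 difference of 0.23 (permutation p = 0.00328, adjusted 0.023). In cytosolic libraries it was 488 to 583 CPM in females and 308 to 473 CPM in males, with no overlap (0.39, exact permutation p = 0.00253, adjusted 0.023). In conditional nuclear libraries it was 292 to 385 CPM in females and 242 to 276 CPM in males, again with no overlap (0.33, exact permutation p = 0.00117, adjusted 0.023).

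Ddx3x averaged 221 ± 28.4 CPM in female and 188 ± 17 CPM in male germline nuclear libraries (log2 difference 0.22, permutation p = 0.00784, adjusted 0.0329), and the difference was 0.28 without the 2 libraries whose sex markers went against their label. In conditional synaptic libraries it was 316 ± 21.4 CPM in females and 270 ± 31.8 CPM in males (0.23, exact permutation p = 0.00991, adjusted 0.0347). In germline synaptic libraries Ddx3x was 216 ± 40.9 CPM in females and 185 ± 34.2 CPM in males (0.23, exact permutation p = 0.111), and 0.10 apart without males 1 and 2. In conditional cortex it was 200 ± 53.8 CPM in females and 154 ± 48.6 CPM in males (0.40, exact permutation p = 0.111). The nuclear and synaptic experiments share animals. Over all genes, edgeR called no member between females and males in any experiment: for Ddx3x in germline cortex the adjusted p was 0.646. The share of all genes called was 0.0761% in germline cortex, 0.0301% in nuclear, 0.134% in synaptic and 0.0434% in cytosolic libraries, and 0.0321%, 0.0379% and 0.0343% in conditional cortex, nuclear and synaptic libraries.

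Cask had 91.6 ± 6.3 CPM in female and 83.3 ± 5.92 CPM in male germline nuclear libraries (log2 difference 0.14, permutation p = 0.00614, adjusted 0.0322), and an adjusted p of at least 0.146 in the other 6 experiments. Fmr1 passed in none. Its smallest p was in conditional synaptic libraries, with 76.5 ± 5.44 CPM in females and 85.5 ± 6.73 CPM in males (−0.16, exact permutation p = 0.0186, adjusted 0.0558). In conditional synaptic libraries, 14 of the 41 genes, against 11.8% of all genes, had an unadjusted p under 0.05 between females and males, with 7 of 41 above 0 and a median log2 difference of −0.10. In germline synaptic libraries 16 of the 41 did, against 35.5% of all genes, and without WT males 1 and 2 it was 4 of the 41, against 11.7%. These differences fell with exon length over all genes at or above a log2 CPM of 3. From the shortest to the longest class, the median went from 0.05 to −0.09 in conditional synaptic libraries. In germline synaptic libraries it went from 0.24 to −0.18. The longest class held 28 members, with medians of −0.13 and −0.10. The part of transcript length in the members' values was not tested.

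The difference between genotypes was not shown to differ between the sexes in germline cortex: the interaction was called for no member and for 0 of 17074 genes (0%), with 0 members and 1.56% of all genes at an unadjusted p under 0.05.

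**Figure D5:**
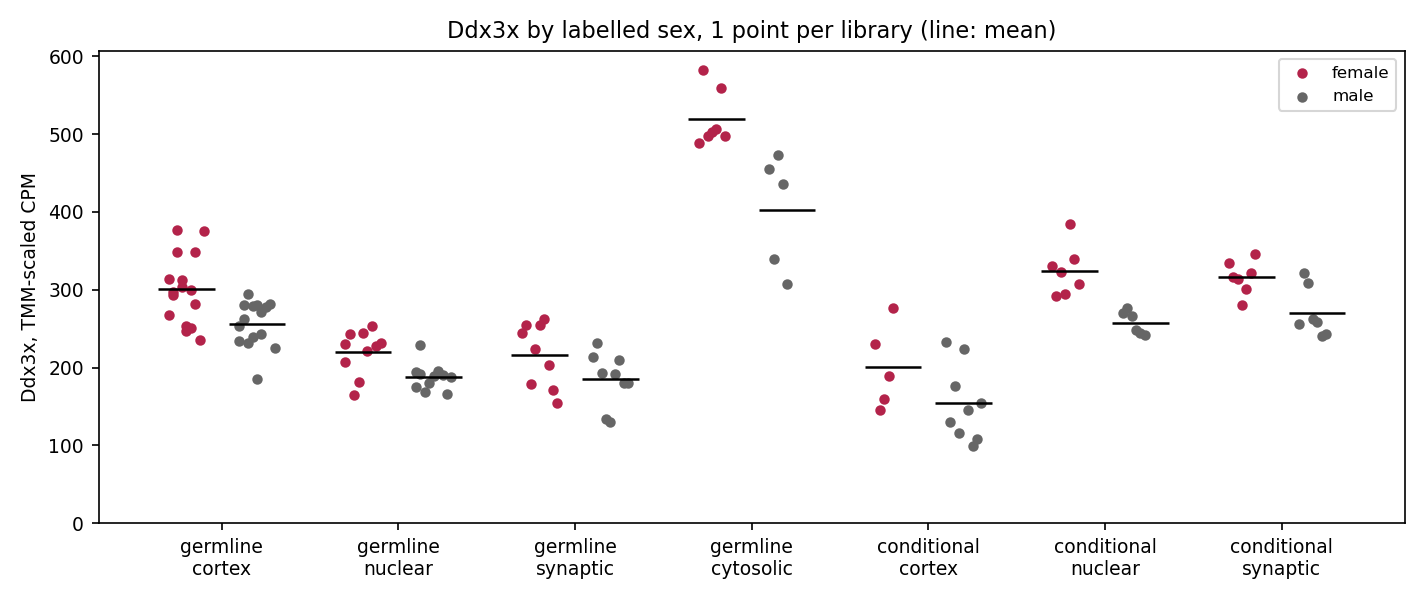
TMM-scaled CPM of Ddx3x in females (left of each pair) and males by labelled sex in the 7 experiments; points are libraries and lines are means. The female mean is the higher in each experiment, and the groups do not overlap in germline cytosolic and conditional nuclear libraries.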

How the data were processed

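The authors deposited raw gene counts as tables for the whole series. Per the submitters' processing notes, STAR 2.5.4b aligned the reads to GRCm38 and featureCounts 2.0.0 made the counts. Per the file headers, conditional cortex differs: featureCounts 1.6.0 and Ensembl 95 were used, without an option for strand. Whether strand was used for the remaining tables is not stated in the labels or headers. Of 127 labelled libraries, 123 entered the fits (the remaining 4, all cytosolic, were not analysed here). Counts of 16 libraries were repeated exactly in a second table and were used once. Any other libraries of 1 group differed by more than sampling noise, with a chi-square of at least 4.66 per degree of freedom. A symbol was found for 54723 of 54838 rows. Coordinates and exon overlaps were read from the GRCm38 annotation.

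Quasi-likelihood F tests (edgeR 4.0.16, limma 3.58.1, R 4.3.3) were fitted over all genes with TMM factors and the filterByExpr filter, and p-values were adjusted by Benjamini-Hochberg with a threshold of 0.05. The germline cortex fit had terms for sex and for the 2 batch labels. Germline nuclear and synaptic fits had sex and the batch labels joined into 3 groups, and all remaining genotype fits had sex alone. The 3 conditional genotypes of a fraction shared 1 fit. Synaptic and nuclear libraries were paired within animals, which library names identify by number. In 1 of the 10 germline WT pairs (nuclear WT male 7, synaptic WT male 6) the sex markers disagree, and the conditional animal with 2 genotype labels was not paired. CPM values are TMM-scaled within an experiment. Each standard error is the size of the fold change over the square root of F. Sex tests of 3 genes were two-sided permutation tests (exact, or 100000 resamples) in Python 3.11.15 with scipy 1.17.1.

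The members and gene lists were chosen with earlier results of these data known. Named in full were, in each genotype comparison, the 2 members of smallest p in each direction, between fractions the 4 largest each way among those called, pairs of related genes, and the X-linked members. Other genes were named after their values were seen. Sex fits outside germline cortex were added after seeing the data. On simulated counts, the germline cortex fit recovered 79.8% of genes changed 1.5-fold and 96.9% changed 2-fold (17036 genes). For the same folds, the germline synaptic fit recovered 27.3% and 61%, the conditional cortex fit 23.2% and 54.5%, and the conditional HOM nuclear fit 18% and 58%. Replicates are separate animals per the labels. Alternatives were DESeq2 1.42.0, no filter, library totals, genotype alone, every batch label, a replicate block, leaving out each library of small groups, and leaving out libraries in doubt.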

Additional observations from a re-analysis of the deposited data

Results flagged for a closer look

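In conditional cortex, reads of the Cre transgene numbered at least 460 in every Cre-positive library and 0 in every Cre-negative one, a signal outside the gene counts compared above.

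In 3 places a value stood far from the rest of its group. Germline synaptic HET female 3 had the lowest mean log2(CPM + 0.5) of the 41 genes, 6.17, with the next HET library at 6.35. Conditional synaptic HET male 1, which has no Cre reads, had 256 CPM of Ddx3x, with the next HET library at 314 CPM. That HET group holds both sexes, and the 7 males of this experiment ranged from 240 to 321 CPM of Ddx3x (median 259). Conditional synaptic WT female 1 had 764 CPM of Ank2, with the next WT library at 887 CPM. In all 63 groups were examined this way and 3 stood out, where chance gives about 1 in 20.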

How the results depend on the processing

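No member was called between genotypes with DESeq2, the replicate block or libraries left out; with no filter on low counts Cntnap2 alone was called, in germline synaptic libraries (0.52, adjusted p = 0.0348, 1 member called). The counts of all genes called moved more. In germline cortex (57 called), DESeq2 called 97, no filter 20, the replicate block 36, and the batch labels alone 1 (CHD807) and 0 (CHD80456). In germline nuclear libraries (3), DESeq2 called 18, no filter 284, and genotype alone, the replicate block, every batch label and leaving out the libraries of doubtful sex 0 each, with 0 to 4 on leaving out single libraries. In germline synaptic libraries (0), DESeq2 called 17, no filter 276 and leaving out WT males 1 and 2 142. Cytosolic counts (0) became 4 with DESeq2, 21 with no filter and 63 with the replicate block. DESeq2 called 4 genes in conditional cortex. In the conditional fractions (0), DESeq2 called 3 (HET) and 27 (HOM) in nuclear and 2 (HOM) in synaptic libraries, and no filter 64, 346, 20 (HET) and 97 (HOM). Between females and males, 5 genes in place of 13 were called in CHD80456 alone and 7 in place of 23 in germline synaptic libraries without WT males 1 and 2.

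Signs reversed for Celf4 (−0.01) and Ppp2r5d (−0.03) in CHD80456 alone, Ank2 (−0.17) and Ank3 (−0.16) in nuclear libraries with every batch label, Ldb1 (0) in cytosol with genotype alone, Ppp2r5d in conditional cortex without single libraries (−0.04 to 0.07), and Fmr1 between the sexes in germline synaptic libraries without WT males 1 and 2 (0.02); the cause was not tested. The members' median became −0.07 (6 of 41 above 0) in nuclear libraries with every batch label, and under the replicate block −0.14 in cytosol (17 with an unadjusted p under 0.05, against 18.6% of all genes) and 0.01 in HOM nuclear libraries. Deviations of same-numbered libraries of different groups correlated over 0.1 in 10 of 14 pairs in germline cortex, 5 of 9 in nuclear, 2 of 7 in synaptic and 1 of 3 in cytosolic libraries. In conditional cortex, nuclear and synaptic libraries it was 2 of 6, 6 of 8 and 8 of 12. At different numbers the counts, in the same order, were 39 of 105, 18 of 44, 17 of 31 and 6 of 13, then 9 of 20, 2 of 12 and 4 of 20. In no experiment did every same-numbered pair pass 0.1, so the numbers were not taken to pair animals. This does not exclude that same-numbered libraries were related. In conditional nuclear and synaptic libraries the median correlation was 0.24 and 0.14 at the same number, against −0.24 and −0.12 at different numbers. Between fractions, leaving out single animals gave 20 to 24 members higher and 6 to 8 lower in HET, 18 to 21 and 1 to 5 in WT, and 24 to 27 and 4 to 7 in conditional animals; without the WT animal of doubtful sex 18 were higher and 1 lower (Irf2bpl, Tcf4 and Trip12 lost their call). Of 380 values of named genes under other settings 369 kept their direction and side of the threshold, and of 672 with a library left out 661 did. Every batch label could not be fitted in germline synaptic libraries, and germline cortex, with over 5 libraries a group, was not refitted without each. Mates of a pair may have been counted separately, so counts are reads rather than fragments. On simulated counts, changes of 1.5-fold in genes drawn from all those tested were often missed in the germline synaptic, conditional cortex and HOM nuclear fits. Apart from these and germline cortex, no fit was simulated.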

Other observations

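Across the 41 genes, the log2 fold change between synaptic and nuclear libraries ran with gene span, with a Spearman rho of 0.41 in HET, 0.39 in WT and 0.36 in conditional animals, against 0.15, 0.14 and 0.21 across all genes tested. These are descriptions over genes, which are not independent replicates; the 3 sets share the gene spans and the scaling. With summed exon length in place of span, rho across the 41 genes was −0.02, −0.01 and −0.07.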
